A study of Mus musculus with 6 samples.

Results

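Interferon-stimulated antiviral effector genes are the genes that cells switch on after an interferon signal and whose products block virus entry, RNA translation and genome copying. A list of 51 such mouse genes was followed by symbol, and all 51 were found among the 54532 genes of the count table, each with 1 entry. The libraries came from CD4+ T cells purified from spleens of C57BL/6 mice and cultured for 72 h under T helper 1 (Th1) conditions. Both groups shared the strain, cell type, Th1 conditions and time, and differed per the labels in the addition of idelalisib, a drug that blocks the delta form of phosphoinositide 3-kinase (PI3K), to 1 of them. There were 3 control and 3 idelalisib cultures, labelled as biological replicates, and poly(A) RNA was sequenced to 13372318 to 16770452 counted reads per library. The age and sex of the mice, the idelalisib dose and the use of a solvent in control cultures are not stated in the sources at hand. Nothing in the labels ties replicates to separate mice, and p-values therefore measure only the spread among these 6 cultures, which may be technical.

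Type I interferons bind a surface receptor that activates the kinases JAK1 and TYK2, and these phosphorylate STAT proteins, which join IRF9 and bind the interferon-stimulated response element (ISRE) at antiviral genes. Interferon gamma, the cytokine that Th1 cells secrete, acts through JAK1 and JAK2 on another element, the gamma-activated site (GAS), and many antiviral genes respond to both. In T cells many of these genes are at a low level at rest and are raised by interferon from the same or from neighbouring cells.

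Most of the antiviral genes were higher with idelalisib. Of 48 that had enough reads to be tested, 45 were higher, 1 was lower and 2 did not pass, where 22.2% of all 14530 tested genes were higher and 22.4% lower (edgeR quasi-likelihood test, Benjamini-Hochberg adjusted p under 0.05, n = 3 per group). Their median log2 fold change was 1.37, against 0.01 over all tested genes. In 45 of them every idelalisib library lay above every control library, which was so for 27.5% of tested genes, and in 1, Ifitm3, every idelalisib library lay below, as in 27.2% of tested genes. The 28 genes that rose by at least 1 on the log2 scale compare with 5.77% of tested genes, and the 15 that rose by at least 2 with 1.15%. Mx1, Cmpk2, Ddx60, Rtp4 and Ifi44 reached the count minimum in no control library, so they could be tested only because they were high with idelalisib. Of the other 43 genes, 40 were higher, 1 was lower and 2 did not pass, with a median log2 fold change of 1.09, and 23 had log2 fold changes of at least 1 and 10 of at least 2. Among these 43, Ifit3 reached the minimum in 1 control library, and Rsad2, Parp12, Phf11a and Xaf1 in 2. The filter asks for 3 libraries, so these genes also needed the idelalisib libraries to pass. All of them are among the 10, so the counts of large rises are not free of this selection. The list itself was chosen with earlier results of these data known, so its counts beside the shares of all tested genes are not independent of those results.

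The rise had nearly the same size in each idelalisib culture. Levels are given as CPM, counts per 1000000 reads, with library sizes scaled by trimmed mean of M-values (TMM) factors. Set against the control mean, the median log2 difference of the 48 tested genes (after adding 0.5 CPM) was 1.26, 1.28 and 1.25 in idelalisib replicates 1, 2 and 3. Summed over the 51 genes, the level was 3457, 3446 and 3174 CPM in control and 5807, 5425 and 5831 CPM in idelalisib cultures, a ratio of means of 1.69. Samhd1 and Shisa5, the most abundant of the genes by CPM, made up 48.8% of this sum in control and 42.2% in idelalisib libraries, on average. Control replicate 3 held the lowest control value for 29 of the 48 tested genes, and without it 43 rose and the median log2 fold change was 1.31. In bulk RNA, more cells that express a gene and more RNA per cell cannot be told apart.

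**Figure D1:**
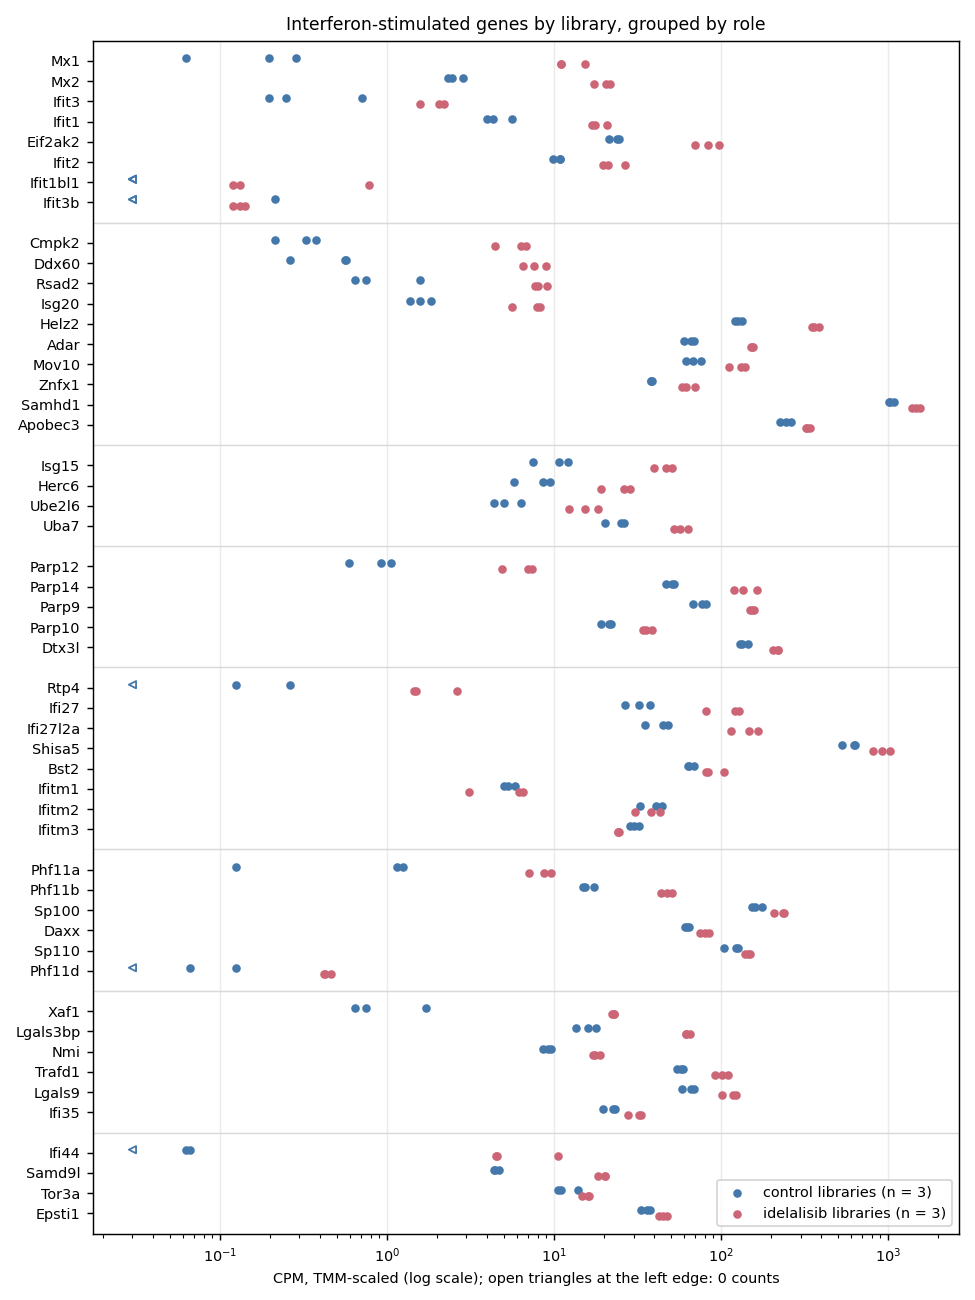
CPM of each of the 51 genes (rows, grouped by role and ordered by fold change within a role) on a log scale, with 1 point per library, blue for the 3 control and red for the 3 idelalisib libraries. The red points lie to the right of the blue ones for most genes, with the exception of Ifitm1, Ifitm2, Ifitm3 and the sparse Ifit3b, and the distance is wide for Mx1 and Ifi44, which had few or no reads in control.

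Some of these genes carry the letters of the ISRE next to their start, which is a description of sequence and not of binding. RefSeq promoter windows on GRCm38.p6, the assembly of mm10, covering 250 bases before to 50 bases after an annotated gene start, were at hand for 42 of the 51 genes (60 windows in all, since some genes have several starts). The ISRE core was searched as GAAA, any 2 bases and GAAA, and the GAS as TTCNNNGAA, on both strands. Matches of the patterns may share bases, but neither can contain the other. Of the 60 windows 28.3% held the ISRE core, against 3.44% of all 32851 windows, and 15% held the GAS pattern, against 8.30%. By gene, 16 of 42 had the ISRE core in at least 1 window. Among genes with a log2 fold change of at least 2 the ISRE core was in 5 of 12 (41.7%), from 1 to under 2 in 3 of 9 (33.3%) and under 1 in 6 of 18 (33.3%). In the same groups the GAS pattern was in 1 of 12 (8.33%), 3 of 9 (33.3%) and 5 of 18 (27.8%). These shares are descriptions without a test. The first group holds genes that needed the idelalisib libraries to pass the count filter, among them Ifit3, Ddx60, Rsad2 and Phf11a of the 5 with the ISRE core. The excerpts below show the ISRE cores of genes that rose by different amounts, with Ifit3b, the near copy of Ifit3 that was too sparse to test, and then those of Ifitm2 and Ifitm3, which did not rise, all on the gene's strand with the cores in capitals.
Isg15 (chr4:156200863-156200908, - strand): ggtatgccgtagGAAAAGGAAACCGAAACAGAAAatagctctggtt
Ifit1 (chr19:34640773-34640825, + strand): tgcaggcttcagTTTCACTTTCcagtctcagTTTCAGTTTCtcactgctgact
Ifit3 (chr19:34583361-34583428, + strand): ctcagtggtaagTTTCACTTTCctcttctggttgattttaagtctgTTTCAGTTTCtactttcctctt
Ifit3b (chr19:34607757-34607824, + strand): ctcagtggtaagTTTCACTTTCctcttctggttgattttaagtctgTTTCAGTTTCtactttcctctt
Ddx60 (chr8:61928022-61928086, + strand): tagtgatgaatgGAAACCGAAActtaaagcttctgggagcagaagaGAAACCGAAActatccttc
Rsad2 (chr12:26456551-26456584, - strand): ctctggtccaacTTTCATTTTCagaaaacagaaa
Phf11a (chr14:59297530-59297563, - strand): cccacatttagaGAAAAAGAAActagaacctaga
Phf11b (chr14:59341359-59341392, - strand): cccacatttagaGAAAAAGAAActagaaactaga
Bst2 (chr8:71537575-71537614, - strand): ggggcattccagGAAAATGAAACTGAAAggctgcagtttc
Ifitm2 (chr7:140955988-140956019, - strand): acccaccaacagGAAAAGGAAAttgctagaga
Ifitm3 (chr7:141010716-141010742, - strand): GAAAAGGAAActtctgaGAAACCGAAA
Isg15 carried 3 overlapping cores, which began 78 to 66 bases before its start, and Ddx60 and Ifit1 carried 2 separate cores each. The excerpts of Ifit3 and Ifit3b were identical over 68 bases, and those of Phf11a and Phf11b differed at 1 of 34 bases. The cores of Ifitm3 lie just after its RefSeq start. For Xaf1, Cmpk2, Parp12 and Ifi44, which rose, no core was found in the window, which says only that these letters are not there.

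Genes whose products bind viral RNA or nucleoprotein, or stop translation, rose in all 6 tested cases, by 1.09 to 6.07 on the log2 scale. Mx1 encodes a dynamin-like GTPase that traps viral nucleoprotein, although C57BL/6 mice carry a defective allele that lacks several coding exons. Mx1 (ENSMUSG00000000386, mm10 chr16:97447035-97462907) was at 0.0626, 0.198 and 0.286 CPM in control and at 11.1, 15.4 and 11.1 CPM in idelalisib cultures (edgeR log2 fold change 6.07 with SE 0.34 and adjusted p = 2.16e-08). The control libraries held 1, 3 and 4 counts of it, so the size of its fold rests on few reads. Its neighbour Mx2, of the same family (ENSMUSG00000023341, mm10 chr16:97535308-97560900), is listed in the deposited table as a polymorphic pseudogene. Mx2 was at 2.44, 2.31 and 2.86 CPM in control and at 20.7, 21.8 and 17.4 CPM in idelalisib cultures (edgeR log2 fold change 2.97 with SE 0.17 and adjusted p = 2.45e-08). All idelalisib libraries were above all control libraries for both, and Mx2, with more control reads, rose 7.86-fold.

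The IFIT genes lie side by side on chromosome 19 and encode tetratricopeptide proteins that bind foreign RNA ends and block translation. Ifit3 (ENSMUSG00000074896, mm10 chr19:34583531-34588731) was at 0.250, 0.198 and 0.715 CPM in control and at 1.58, 2.05 and 2.21 CPM in idelalisib cultures (edgeR log2 fold change 2.34 with SE 0.46 and adjusted p = 0.00102). Its near copy Ifit3b had 0, 0 and 3 counts in control and 2, 2 and 2 counts in idelalisib cultures, a ratio of totals of 1.96 (exact 95% interval for counting error, 0.418 to 12.1), and was too sparse to test. Of the 50-base words of Ifit3 transcripts, 51.2% also occur in other genes, so reads may be split between the copies. Summed with Ifit3b, Ifit3 still rose, by 2.20 (edgeR adjusted p = 0.00211). Ifit1, which recognises RNA caps that lack self-type methylation, rose from 4.64 ± 0.888 to 18.4 ± 2.03 CPM (SD, n = 3), or 3.96-fold. Ifit2 rose 2.13-fold, from 10.6 ± 0.534 to 22.5 ± 3.64 CPM, the smallest rise of the tested genes of the cluster. Ifit1bl1 had 0, 0 and 0 counts in control and 2, 11 and 2 counts in idelalisib cultures. Against a floor of 3 counts over the control group it was at least 4.90-fold higher, although the exact 95% lower limit for counting error is 3.51, and 11 of its 15 reads came from idelalisib replicate 2. Eif2ak2, which encodes the RNA-activated kinase PKR that shuts down translation, rose 3.59-fold, from 23.2 ± 1.70 to 83.4 ± 13.7 CPM.

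Enzymes that act on nucleotides and nucleic acids rose in all 10 cases, over a wide range from 0.43 to 4.21 on the log2 scale. Cmpk2, a mitochondrial nucleotide kinase gene, was at 0.375, 0.330 and 0.214 CPM in control and at 6.78, 4.46 and 6.39 CPM in idelalisib cultures (edgeR log2 fold change 4.21 with SE 0.34 and adjusted p = 5.30e-07). Rsad2 encodes viperin, which makes a chain-terminating nucleotide from CTP, and is the neighbour of Cmpk2 on chromosome 12, with starts 12752 bases apart on opposite strands. Rsad2 was at 0.751, 1.59 and 0.643 CPM in control and at 9.15, 8.07 and 7.76 CPM in idelalisib cultures (edgeR log2 fold change 3.05 with SE 0.29 and adjusted p = 2.19e-06). Ddx60, a helicase gene of RNA sensing, was at 0.563, 0.264 and 0.572 CPM in control and at 9.02, 7.65 and 6.57 CPM in idelalisib cultures (edgeR log2 fold change 4.03 with SE 0.30 and adjusted p = 2.83e-07). For each of these genes the lowest idelalisib library was above the highest control library, and each was near or under 1 CPM in control on average. Isg20, an RNA exonuclease gene, rose 4.55-fold and Helz2, a helicase gene that was already abundant, rose 2.88-fold, from 128 ± 5.47 to 367 ± 16.8 CPM.

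The more abundant enzymes of this role rose by less. Adar, which edits adenosine in double-stranded RNA, rose 2.34-fold, from 65.5 ± 4.55 to 153 ± 2.09 CPM, and its gene model overlaps that of Chrnb2 on the opposite strand by 7252 bases. The RNA helicase gene Mov10 and the helicase-type RNA sensor gene Znfx1 rose 1.87-fold and 1.65-fold. Samhd1, whose product depletes deoxynucleotides and so limits retroviral copying, rose from 1045 ± 40.6 to 1479.5 ± 78.3 CPM (edgeR log2 fold change 0.50 with SE 0.08 and adjusted p = 1.37e-04). Apobec3, a cytidine deaminase gene directed at retroviruses, rose 1.35-fold, from 245 ± 19.3 to 330.4 ± 9.04 CPM.

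The ubiquitin-like modifier ISG15 and the enzymes that attach it rose together. Isg15 itself (ENSMUSG00000035692, mm10 chr4:156199424-156200818) was at 10.7, 12.1 and 7.51 CPM in control and at 39.8, 47.1 and 51.2 CPM in idelalisib cultures (edgeR log2 fold change 2.18 with SE 0.16 and adjusted p = 2.32e-07). Herc6, the ligase of this system in mice, was at 8.63, 9.45 and 5.79 CPM in control and at 28.4, 26.3 and 19.1 CPM in idelalisib cultures (edgeR log2 fold change 1.62 with SE 0.19 and adjusted p = 1.86e-05). Ube2l6, the conjugating enzyme gene, was at 5.01, 4.36 and 6.36 CPM in control and at 12.3, 18.3 and 15.3 CPM in idelalisib cultures (edgeR log2 fold change 1.55 with SE 0.19 and adjusted p = 2.38e-05). No idelalisib library overlapped a control library for these genes. Uba7, the activating enzyme gene, completed the set at 2.39-fold, from 24.0 ± 3.17 to 57.5 ± 5.58 CPM.

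All 5 genes of ADP-ribosylation rose. Parp12, a zinc finger ADP-ribosyltransferase gene, was at 1.06, 0.594 and 0.929 CPM in control and at 6.98, 7.43 and 4.90 CPM in idelalisib cultures (edgeR log2 fold change 2.88 with SE 0.29 and adjusted p = 4.25e-06). Parp14, which adds single ADP-ribose units, was at 47.2, 50.9 and 52.2 CPM in control and at 136, 164 and 120.5 CPM in idelalisib cultures (edgeR log2 fold change 1.48 with SE 0.11 and adjusted p = 2.18e-07). Parp9, the partner of the ubiquitin ligase Dtx3l, was at 77.6, 81.6 and 68.0 CPM in control and at 154, 157 and 149 CPM in idelalisib cultures (edgeR log2 fold change 1.02 with SE 0.09 and adjusted p = 9.34e-07). The groups did not overlap in any of these genes. Dtx3l rose 1.57-fold and Parp10, on another chromosome, 1.74-fold. Parp9 and Dtx3l start head to head on chromosome 16 and overlap by 682 bases on opposite strands, where reads cannot be assigned to 1 of them if strand was not used.

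Genes of membrane and organelle proteins were split. In this role 5 of 8 genes rose, 1 fell and 2 did not pass, and the last 3 were the Ifitm genes. Rtp4, a receptor transport protein gene with antiviral action, was at 0.125, 0.264 and 0 CPM in control and at 1.45, 2.62 and 1.49 CPM in idelalisib cultures (edgeR log2 fold change 3.72 with SE 0.61 and adjusted p = 2.48e-04), with 2, 4 and 0 control counts. Its gene model overlaps that of Masp1 on the opposite strand by 525 bases and that of Gm45338 on the same strand by 39791 bases. Of the 50-base words of Rtp4 transcripts, 11.6% also occur in Gm45338. Ifi27 was at 32.5, 37.7 and 26.7 CPM in control and at 122, 81.4 and 128 CPM in idelalisib cultures (edgeR log2 fold change 1.77 with SE 0.19 and adjusted p = 9.48e-05). Its neighbour Ifi27l2a was at 45.0, 48.2 and 35.3 CPM in control and at 148, 114 and 167 CPM in idelalisib cultures (edgeR log2 fold change 1.74 with SE 0.15 and adjusted p = 4.29e-06). Both are small membrane protein genes that lie next to each other on chromosome 12, both were lowest in replicate 3 among control and in replicate 2 among idelalisib libraries, and the groups did not overlap in either. Shisa5, which encodes a protein of the endoplasmic reticulum, rose 1.55-fold, from 595 ± 57.6 to 924 ± 105 CPM. Bst2, which encodes tetherin, the protein that holds budding virions on the cell surface, rose 1.38-fold, from 65.4 ± 2.84 to 90.0 ± 12.1 CPM.

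Ifitm1, Ifitm2 and Ifitm3 encode membrane proteins that hinder the fusion of viruses with the cell, and they form a cluster on chromosome 7. Ifitm3 (ENSMUSG00000025492, mm10 chr7:141009586-141010770) was at 32.4, 28.7 and 30.3 CPM in control and at 24.4, 24.3 and 24.6 CPM in idelalisib cultures (edgeR log2 fold change -0.32 with SE 0.10 and adjusted p = 0.0195). The groups did not overlap, but the fall lost its call scaled by library size alone (adjusted p = 0.194) and without control replicate 1, control replicate 3 or idelalisib replicate 1 (adjusted p = 0.104, 0.0559 and 0.0598). Ifitm2 was at 44.4, 41.0 and 32.8 CPM in control and at 38.0, 30.5 and 43.0 CPM in idelalisib cultures (edgeR log2 fold change -0.08 with SE 0.14 and adjusted p = 0.650). Ifitm1 was at 5.32, 5.02 and 5.86 CPM in control and at 6.58, 3.12 and 6.15 CPM in idelalisib cultures (edgeR log2 fold change -0.02 with SE 0.25 and adjusted p = 0.946). In Ifitm1 and Ifitm2 the groups overlapped, and scaled by library size alone their log2 fold changes turned to 0.13 and 0.07. Of the words of Ifitm2 transcripts, 48.5% occur in other genes, so its count is less certain than those of Ifitm1 and Ifitm3.

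**Figure D2:**
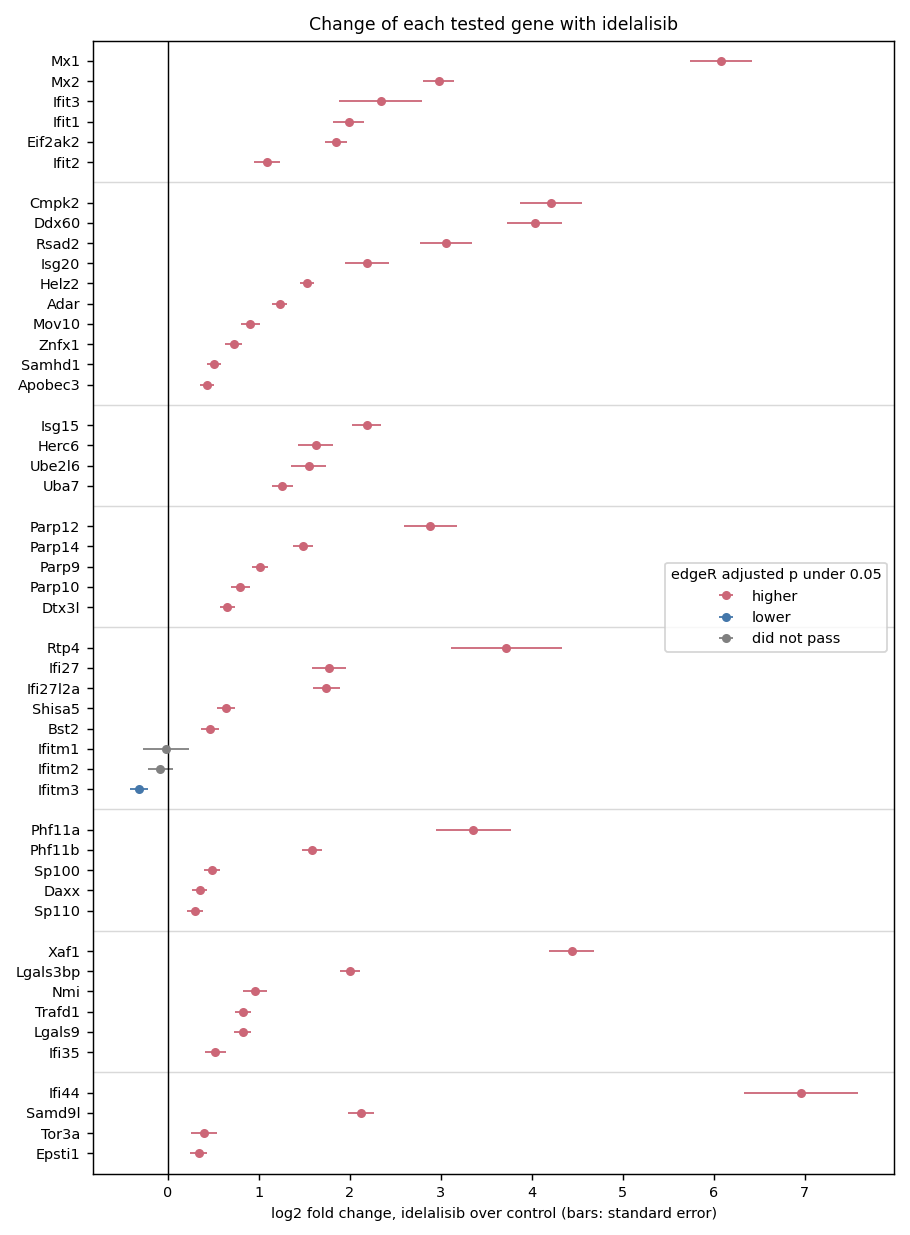
Log2 fold change of each of the 48 tested genes (points, idelalisib over control) with its standard error (bars), in the same role groups, red where higher, blue where lower and grey where the test was not passed. Ifi44 and Mx1 lie farthest to the right at 6.96 and 6.07, and the Ifitm genes are the only points at or left of 0, of which Ifitm1 and Ifitm2 cross to the right when scaled by library size alone.

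Genes of nuclear bodies and chromatin rose in all 5 tested cases, but mostly by small amounts. Phf11a, a PHD finger protein gene, was at 0.125, 1.26 and 1.14 CPM in control and at 9.68, 7.15 and 8.78 CPM in idelalisib cultures (edgeR log2 fold change 3.36 with SE 0.42 and adjusted p = 6.26e-05). Phf11b, next to it on chromosome 14, was at 15.3, 17.4 and 14.9 CPM in control and at 47.8, 44.0 and 50.9 CPM in idelalisib cultures (edgeR log2 fold change 1.58 with SE 0.11 and adjusted p = 1.18e-07). Another copy, Phf11d, had 2, 1 and 0 counts in control and 7, 6 and 7 counts in idelalisib cultures, a ratio of totals of 6.53 (exact 95% interval for counting error, 1.94 to 34.3), and was not tested. These copies share sequence (35.2% and 47.0% of the words of Phf11a and Phf11b occur in other genes), and with their counts summed the log2 fold change was 1.75. Sp100, a main component of nuclear bodies that restrict viral DNA, was at 159.6, 153 and 175 CPM in control and at 239.8, 235 and 207 CPM in idelalisib cultures (edgeR log2 fold change 0.48 with SE 0.09 and adjusted p = 4.80e-04). Daxx, a histone chaperone gene of the same bodies, rose 1.27-fold. Sp110 rose from 118 ± 12.1 to 145 ± 5.04 CPM (edgeR log2 fold change 0.30 with SE 0.09 and adjusted p = 0.0148). Its call was lost without control replicate 3 (adjusted p = 0.105). For Sp110, 42.3% of words occur in other genes.

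Signalling regulators and galectin-related genes rose in all 6 cases. Xaf1, whose product counteracts an inhibitor of apoptosis, was at 0.751, 1.72 and 0.643 CPM in control and at 22.2, 23.1 and 22.8 CPM in idelalisib cultures (edgeR log2 fold change 4.44 with SE 0.24 and adjusted p = 1.73e-08). Its idelalisib libraries had an SD of 0.461 CPM, at a level 21.6-fold above control. Lgals3bp, which encodes a secreted glycoprotein that binds galectins, was at 17.8, 13.5 and 16 CPM in control and at 62.1, 62.2 and 65.7 CPM in idelalisib cultures (edgeR log2 fold change 2.00 with SE 0.11 and adjusted p = 1.73e-08). Nmi, which encodes a partner of STAT proteins, was at 9.26, 9.64 and 8.65 CPM in control and at 18.9, 17.6 and 17.2 CPM in idelalisib cultures (edgeR log2 fold change 0.96 with SE 0.13 and adjusted p = 5.70e-05). Ifi35, whose product pairs with that of Nmi, rose 1.43-fold, Trafd1, a feedback regulator gene of innate signalling, 1.77-fold, and Lgals9, the gene of galectin-9, 1.77-fold, from 64.7 ± 5.33 to 114 ± 11.1 CPM.

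The other 4 genes also rose. Ifi44, an interferon-induced cytoplasmic protein gene (ENSMUSG00000028037, mm10 chr3:151730922-151749960), had 1, 1 and 0 counts in control and 68, 149 and 77 counts in idelalisib cultures, which is 0.0626, 0.0661 and 0 CPM and 4.48, 10.5 and 4.60 CPM. The ratio of its totals was 144 (exact 95% interval for counting error, 39.5 to 1194), and idelalisib replicate 2 held the most. Its fitted change (edgeR log2 fold change 6.96 with SE 0.63 and adjusted p = 1.98e-06) depends on the small count added in the fit. Samd9l, a growth-restricting antiviral factor gene, was at 4.69, 4.43 and 4.36 CPM in control and at 20.3, 20.3 and 18.5 CPM in idelalisib cultures (edgeR log2 fold change 2.13 with SE 0.14 and adjusted p = 1.13e-07). Tor3a, an ATPase gene of the endoplasmic reticulum, was at 14, 11.1 and 10.6 CPM in control and at 16, 16.2 and 14.8 CPM in idelalisib cultures (edgeR log2 fold change 0.39 with SE 0.14 and adjusted p = 0.0383), and its groups were separated by a narrow gap. The call of Tor3a was lost without control replicate 2, control replicate 3 or idelalisib replicate 1 (adjusted p = 0.133, 0.157 and 0.0894) and in DESeq2 (0.0514). Epsti1 rose 1.26-fold, from 35.8 ± 2.15 to 45.1 ± 2.48 CPM, and lost its call without control replicate 2 (adjusted p = 0.0585).

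The size of the rise is also given by the level in control cultures, beside that of all tested genes at the same level. From 1 to 10 CPM in control the median log2 fold change was 1.99 for 9 of the genes, against 0.08 for all genes. It was 0.91 for 23 genes at 10 to 100 CPM, against 0.03, and 0.50 for 7 genes over 100 CPM, against -0.20. Of the 9 tested genes under 1 CPM, 5 reached the count minimum in no control library. The other 4, Ifit3, Parp12, Rsad2 and Phf11a, reached it in 1 or 2 control libraries, where the filter asks for 3. All 9 thus passed through the idelalisib libraries, so no median is given for them. The log2 fold changes of the 4 were 2.34, 2.88, 3.05 and 3.36, and carry the same selection. In the bin from 1 to 10 CPM, Xaf1 reached the minimum in 2 control libraries. The values by control level are descriptions without a test, since the control level enters both the bin and the fold.

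Per length, the same 4 genes were highest in both groups. In RPKM, which is CPM divided by the deposited gene length in kilobases, Shisa5 was highest in control at 180.4 ± 17.5, followed by Samhd1 at 114 ± 4.44, Ifi27l2a at 92.5 ± 14.4 and Bst2 at 72.5 ± 3.14 (SD, n = 3). With idelalisib Ifi27l2a was at 309 ± 57.5 and Shisa5 at 280.1 ± 31.8 RPKM, which do not differ beyond their spread, ahead of Samhd1 at 162 ± 8.56 and Bst2 at 99.7 ± 13.4. Isg15 moved from 13.4 ± 3.11 to 60.9 ± 7.69 RPKM, past the level of Ifitm3, which was at 45.0 ± 2.72 and then 36.0 ± 0.248. Mx1 stayed far lower in spite of its large fold, at 3.31 ± 0.664 RPKM with idelalisib.

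**Figure D3:**
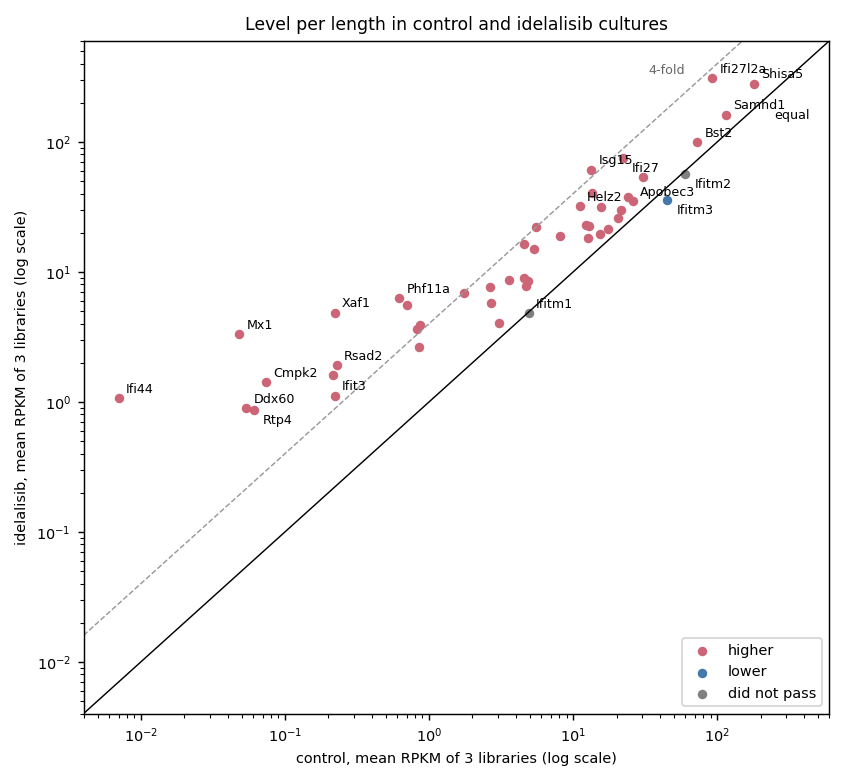
Mean RPKM of the 48 tested genes in control (x axis) and idelalisib libraries (y axis), both on log scales, with 1 point per gene coloured as in the plot of fold changes, a solid line for equal levels and a dashed line for a 4-fold rise. Genes at the lower left, such as Mx1, Cmpk2 and Xaf1, lie above the dashed line, abundant genes such as Samhd1 and Shisa5 lie just above the solid line, and Ifitm1, Ifitm2 and Ifitm3 lie on or below it.

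Other genes of the interferon pathway changed in part. Of a list of 41 ligand, receptor, kinase, transcription factor and inhibitor genes, 24 had enough reads to be tested, and 11 of these were higher, 3 lower and 10 did not pass (22.2% of all tested genes were higher and 22.4% lower). The 11 include Ifnl2 and Ifnl3, which needed the idelalisib libraries to pass the count filter, so this count carries that selection. Ifng, the gene of interferon gamma, was at 384, 419 and 361 CPM in control and at 157, 129.5 and 153 CPM in idelalisib cultures (edgeR log2 fold change -1.41 with SE 0.09 and adjusted p = 9.25e-08), so it was lower in all idelalisib libraries. Type I interferon genes were at or near 0. Ifnb1, the gene of interferon beta, had 0, 1 and 0 counts in control and 2, 0 and 1 counts in idelalisib cultures, and 12 of the 20 listed ligand genes had no read in any library. Ifna4 had 0, 0 and 0 counts in control and 2, 1 and 6 counts in idelalisib cultures, at least 2.94-fold higher against a floor of 3 counts over the control group. Its exact 95% lower limit for counting error is 1.93, and 6 of its 9 reads came from idelalisib replicate 3. Ifna2 had 0, 0 and 0 counts in control and 0, 1 and 3 counts in idelalisib cultures. At this depth these genes were too sparse to test.

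The interferon lambda genes Ifnl2 and Ifnl3 were also scarce but passed the test. Ifnl3, with 7, 10 and 6 control counts, reached the count minimum in no control library. Ifnl2, with 13, 11 and 2 control counts, did not reach it in all 3. Both could thus be tested only with the help of the idelalisib libraries, where they were high, and their calls carry this selection. Ifnl2 was at 0.813, 0.727 and 0.143 CPM in control and at 1.78, 1.20 and 3.40 CPM in idelalisib cultures (edgeR log2 fold change 1.90 with SE 0.52 and adjusted p = 0.00872). Ifnl3 was at 0.438, 0.661 and 0.429 CPM in control and at 1.91, 0.991 and 2.51 CPM in idelalisib cultures (edgeR log2 fold change 1.82 with SE 0.44 and adjusted p = 0.00409). Both were highest in idelalisib replicate 3, and the call of Ifnl2 was lost without it (adjusted p = 0.0555). Among receptor genes, Il10rb, a chain of the interferon lambda and interleukin-10 receptors, rose from 12.9 ± 0.514 to 20.5 ± 0.908 CPM and Ifngr1, the ligand-binding chain for interferon gamma, fell from 142 ± 6.83 to 102 ± 2.66 CPM (edgeR log2 fold change -0.47 with SE 0.08 and adjusted p = 2.63e-04). The type I receptor genes Ifnar1 and Ifnar2 had log2 fold changes of 0.19 and 0.11 (SE 0.08 and 0.10) that did not pass (edgeR adjusted p = 0.0584 and 0.356). Ifnar1 passed scaled by library size alone and without idelalisib replicate 2 or 3 (adjusted p = 0.00220, 0.0385 and 0.0359). Of the kinase genes Jak1, Jak2 and Tyk2, 0 passed in edgeR or DESeq2 and 0 had an unadjusted p under 0.05 in either, with log2 fold changes of -0.10, 0.15 and 0.03, where Jak1 turned to 0.05 scaled by library size alone. Jak2 passed under that scaling and without idelalisib replicate 3 (adjusted p = 0.0125 and 0.0265).

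Transcription factor genes rose in 4 of 5 cases. Irf7, which amplifies interferon responses, was at 3.00, 4.29 and 2.79 CPM in control and at 29.5, 25.2 and 30.3 CPM in idelalisib cultures (edgeR log2 fold change 3.07 with SE 0.17 and adjusted p = 1.98e-08). Its rise was the largest among the 24 tested pathway genes, and the groups were far apart. Stat2 was at 102, 90.7 and 97.0 CPM in control and at 211, 213 and 213 CPM in idelalisib cultures (edgeR log2 fold change 1.14 with SE 0.08 and adjusted p = 1.19e-07). Irf9, the DNA-binding partner of STAT proteins at the ISRE, rose 1.73-fold, from 40.3 ± 0.613 to 69.8 ± 4.21 CPM. Irf1 had a log2 fold change of 0.24 (edgeR adjusted p = 0.0427), which lost its call without any 1 of the control libraries, without idelalisib replicate 1 or 3 and with a replicate block (adjusted p up to 0.175). Irf3, which starts interferon production, was at -0.08 on the log2 fold scale (SE 0.10, did not pass, edgeR adjusted p = 0.523), and at 0.07 scaled by library size alone. Of the inhibitors, Socs1 and Socs3, which block JAK kinases, rose 1.65-fold and 1.66-fold, and Pias1, an inhibitor of STAT signalling, rose 1.30-fold. Usp18, which removes ISG15 and restrains the type I receptor, rose 1.26-fold, from 42.7 ± 3.64 to 53.9 ± 2.96 CPM, and lost its call without control replicate 2 (adjusted p = 0.0661). Ptpn2, a phosphatase gene that acts on JAK and STAT proteins, fell from 194 ± 6.33 to 122 ± 0.932 CPM.

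**Figure D4:**
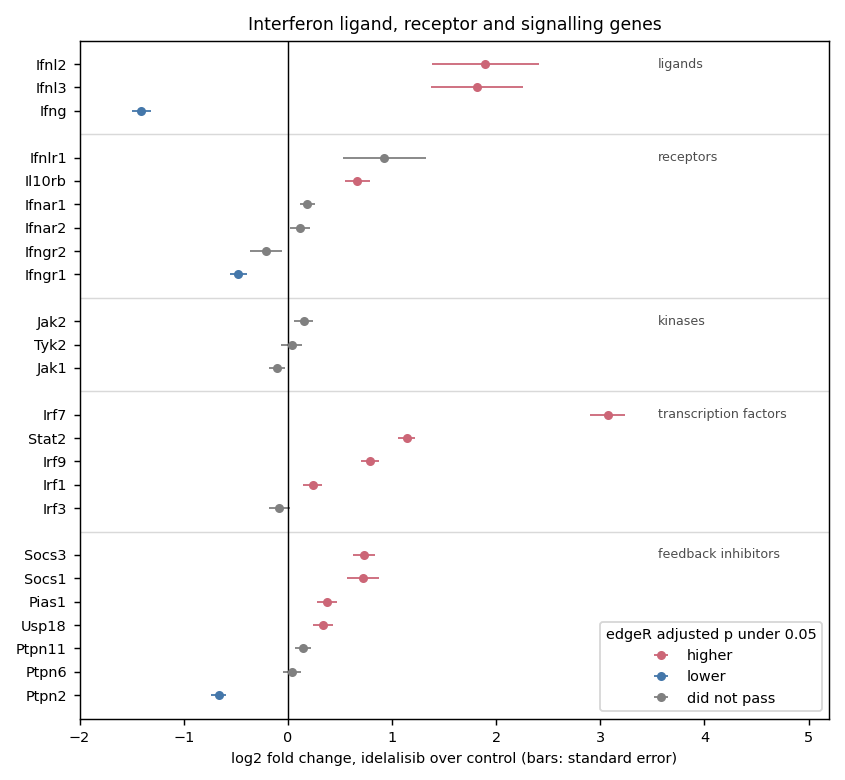
Log2 fold change of the 24 tested interferon ligand, receptor, kinase, transcription factor and inhibitor genes (points, idelalisib over control) with standard errors (bars), coloured as in the plot of the antiviral genes. Irf7 lies farthest to the right at 3.07 and Ifng farthest to the left at -1.41, while the kinase genes lie near 0.

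The libraries carried the markers of T cells, and those of some other cells moved with idelalisib. Of 8 markers of T cells 2 were higher and 1 lower, with sums of 3168 to 3206 CPM in control and 2936 to 3183 CPM in idelalisib libraries. Of 10 B cell markers 8 were tested and 6 were higher, with sums of 24.1 to 24.9 CPM in control and 29.0 to 36.7 CPM in idelalisib libraries. Ebf1, which did not pass, made up most of the control sum, at 15.4 CPM in control and 14.7 CPM with idelalisib on average. Of the 6 higher markers, Blk reached the count minimum in no control library, and Cd79a, Cd79b and Bank1 not in all 3. These markers thus needed the idelalisib libraries to be tested, and the count of 6 carries this selection. Ms4a1 and Fcer2a, which were not tested, had 28 and 29 counts over the control libraries and 24 and 23 over the idelalisib libraries. Of 6 natural killer cell markers 3 were tested and 2 were higher, with sums of 11.4 to 12.2 CPM in control and 17 to 22.1 CPM in idelalisib libraries, while the defining gene Ncr1 had no read. The higher ones were Eomes, at 2.88 CPM in control and 9.30 CPM with idelalisib on average, and Klrd1, at 6.40 and 8.69 CPM. Klre1 did not pass, at 2.32 and 1.94 CPM, and the untested Klrb1c had 8 counts in control and 2 in idelalisib libraries. Among 8 markers of plasmacytoid dendritic cells, which make much type I interferon, Siglech and Klk1 had no read, 1 of 4 tested was higher and 1 lower, and the sums were 48.5 to 50.6 CPM in control and 44.7 to 50.1 CPM in idelalisib libraries. Tcf4, the lower one, and Pacsin1, which did not pass, made up most of these sums. The higher one, Spib, was at 0.633 CPM in control and 1.48 CPM with idelalisib on average, and also needed the idelalisib libraries to pass the count filter. For monocytes and macrophages 1 of 8 markers was tested and was lower, with sums of 17.4 to 18.3 CPM in control and 10.1 to 13.7 CPM in idelalisib libraries. Conventional dendritic cell markers summed to 11.6 to 12.9 CPM in control and 8.60 to 12 CPM in idelalisib libraries, and 2 of 7 were tested, neither of which passed. Granulocyte markers summed to 48.7 to 51 CPM in control and 119.5 to 149 CPM in idelalisib libraries, nearly all from Ly6g and Cxcr2, which were both higher. S100a8 and S100a9 were at 0 in every control library, and had 0, 3 and 1 and 0, 0 and 1 counts in idelalisib libraries. Retnlg had no read in any library, and Mmp9 did not pass (edgeR adjusted p = 0.646). Of the CD8 markers, Cd8a was higher and Cd8b1 did not pass, with sums of 4.43 to 7.86 CPM in control and 7.24 to 9.5 CPM in idelalisib libraries. The part of these cells in the rise of the antiviral genes was not tested.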

How the data were processed

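RNA was measured in 6 libraries of mouse CD4+ T cells, 3 per group, grouped by sample title. Per the labels' protocols, poly(A) RNA was captured, fragmented and copied with random hexamers. The deposited values are raw read counts per gene, made by the authors with fastp, HISAT2 2.0.5 and featureCounts 1.5.0-p3 on mm10, per the submitters' processing notes. The strand setting, the handling of multi-mapping reads and the annotation release are not stated there. Identical identifiers and coordinates were found for 49 of the 51 genes in GENCODE M21, whose transcripts gave the 50-base words (both strands).

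Genes were filtered with filterByExpr (minimum count 10, minimum total 15), scaled with TMM and fitted in edgeR 4.0.16 under R 4.3.3 (robust quasi-likelihood F test, group alone) over all 14530 genes, with Benjamini-Hochberg adjustment. Standard errors are the log2 fold change over the square root of F. Intervals cover counting error only. The test was checked on a simulated data set with far fewer changed genes than were called here. Unchanged genes made up a larger share of calls there than the nominal one, a share that may not carry over to these data. An adjusted p just under 0.05 may thus be weaker evidence than it states. Within groups, no libraries were duplicates (chi-square per degree of freedom of at least 4.96). Members and lists were chosen with earlier results of these data known. Values in every library are given for the 3 genes with the largest change in each role and for those that were lower or did not pass. Alternatives were RLE scaling, library size alone, a minimum of 1 count, DESeq2 1.42.0, stricter thresholds, a replicate block, summed copies and leaving out each library. 1 gene of the pathway list is not reported here. Pairing of replicate numbers is treated with the alternatives.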

Additional observations from a re-analysis of the deposited data

How the results depend on the processing

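Of the 48 tested genes, 44 kept their direction and their side of the threshold, or stayed uncalled, under all 11 refits (2 scalings, the lowest count filter, DESeq2, a replicate block and each library left out), and the exceptions, Ifitm3, Sp110, Epsti1 and Tor3a, are given with their values above. The count of higher genes was 43 to 45 with 1 library left out, 44 in DESeq2, 43 at an adjusted p under 0.01, 47 of 51 with the lowest count filter, and 28 with a log2 fold change of at least 1. The count of lower genes was 1, or 0 at an adjusted p under 0.01, with a log2 fold change of at least 1 and scaled by library size alone (edgeR, 0 at an unadjusted p under 0.05 there and 1 by DESeq2), and 0 to 1 with 1 library left out (1 at an unadjusted p under 0.05 in each). The median log2 fold change was 1.31 to 1.40 with 1 library left out, 1.49 with the lowest count filter and 1.53 scaled by library size alone, which also moved the median of all genes to 0.16 and the calls over all genes from 3223 higher and 3256 lower to 4832 and 2219. At a log2 fold change of at least 1, 4 pathway genes were higher and 1 lower. The 4 include Ifnl2 and Ifnl3, which needed the idelalisib libraries to pass the count filter. With the replicate block 45 of the antiviral genes were higher, 1 was lower and the median was 1.37. Same-numbered libraries did not deviate together (correlations of 0.0886, -0.1389 and -0.1244 for numbers 1, 2 and 3), while control 3 and idelalisib 2 reached 0.2255. Deviations from the mean of only 3 libraries cannot exclude pairing, which the labels leave unknown. Among the tested antiviral and pathway genes the block changed no call but that of Irf1. Over all genes it called 2910 higher and 3051 lower. With 13372318 to 16770452 reads per library, Ifit1bl1, Ifit3b, Phf11d and the type I interferon genes were too sparse to test.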
